A study of Mus musculus with 22 samples.

Results

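The genes of the AMPA-type glutamate receptor and of the proteins that travel with it were followed through 3 mouse brain regions and 2 genotypes. The genes were named by symbol, and 9 of 9 were listed among the 23037 genes of the count table: the subunits Gria1, Gria2, Gria3 and Gria4, the transmembrane AMPA receptor regulatory proteins Cacng2, Cacng3 and Cacng8, and the cornichons Cnih2 and Cnih3. RNA was taken from hippocampus, cortex and cerebellum of 4 WT mice and 4 CD mice, and 22 libraries were read at the 3′ ends of polyadenylated transcripts from 30 ng of RNA each. WT hippocampus had 3 libraries, CD hippocampus 4, WT cortex 4, CD cortex 4, WT cerebellum 4 and CD cerebellum 3. Most mice gave a library of every region, so the regions share animals and the genotypes do not.

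CD stands for circTulp4-deficient. These mice carry a change made with CRISPR-Cas9 at the splice acceptor that serves the backsplice of circTulp4, a circular RNA of the Tulp4 gene. The line is on C57BL/6, descends from a single mosaic founder male and keeps some circTulp4, so it is a model of reduced rather than absent circular RNA. WT mice served as controls. The age and sex of the animals behind these libraries are not given in the sources used here. The libraries address whether gene expression differs in brain regions of CD mouse mice.

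AMPA receptors carry most of the fast excitatory current in the brain. They are assembled from GluA1 to GluA4, the products of Gria1 to Gria4; receptors with the edited form of GluA2 let little calcium through, and receptors without GluA2 are calcium-permeable. Each subunit gene carries a pair of alternative exons, flip and flop, near the last membrane segment, and the choice alters how the receptor desensitises. Auxiliary proteins shape the receptor further: Cacng2 encodes stargazin, which cerebellar granule cells need to bring receptors to the surface, Cacng3 and Cacng8 encode γ-3 and γ-8, and cornichons slow the decay of receptor currents.

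The flip and flop exons of Gria1 and Gria4 are shown first, since for these genes the annotation ties 1 row of the table to each exon and the rows are compared below. Each was read from GENCODE transcripts on the mouse build GRCm38, which has the same coordinates as mm10, and capitals mark the bases that differ between the flip and the flop exon of that gene. All are 115 bases long and coding. The Gria1 flip exon lies on the plus strand at chr11:57310608-57310722 and the flop exon at chr11:57309769-57309883, each exon 14 of 16.
Gria1 flip: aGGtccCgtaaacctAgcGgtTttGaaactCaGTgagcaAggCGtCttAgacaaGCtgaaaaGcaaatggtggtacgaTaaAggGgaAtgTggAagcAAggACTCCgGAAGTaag
Gria1 flop: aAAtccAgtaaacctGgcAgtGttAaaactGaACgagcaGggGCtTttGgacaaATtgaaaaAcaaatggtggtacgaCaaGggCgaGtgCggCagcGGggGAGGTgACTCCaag
The Gria4 exons lie on the minus strand at chr9:4427030-4427144 for flip and chr9:4432773-4432887 for flop, each exon 15 of 17.
Gria4 flip: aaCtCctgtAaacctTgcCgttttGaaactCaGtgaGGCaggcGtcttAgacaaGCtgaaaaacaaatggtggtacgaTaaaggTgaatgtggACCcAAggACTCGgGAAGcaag
Gria4 flop: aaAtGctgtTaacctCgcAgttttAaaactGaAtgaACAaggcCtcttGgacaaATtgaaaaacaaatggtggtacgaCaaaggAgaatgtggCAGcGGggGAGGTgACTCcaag
The exons of a pair differed at 36 of 115 bases in Gria1 and in Gria2, at 32 in Gria3 and at 31 in Gria4. A flip exon was called by the serine and a flop exon by the asparagine that follows the lysine and leucine codons in frame, and every pair held 1 of each.

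Library totals ran from 2760846 to 8858940 counts over 1 row per gene, with a median of 5887412. A count of 0 therefore allows up to 0.339 to 1.09 cpm (counts scaled to the library total), taken as 3 counts of the library, and this covers counting error only. Taken as sums, the region markers stood where the labels put them: the summed level of 6 hippocampal markers was 1518 to 2132 cpm in hippocampus and at most 497 cpm elsewhere, 6 cortical markers summed to 935 to 1065 cpm in cortex and at most 411 cpm elsewhere, and 7 granule and Purkinje cell markers summed to 8537 to 8960 cpm in cerebellum and at most 584 cpm elsewhere. Singly, 5 of 6 hippocampal and 5 of 6 cortical markers were over 2-fold apart between hippocampus and cortex at a false discovery rate under 0.01. The exceptions were Wfs1, with means of 33.8 cpm in hippocampus and 27.9 cpm in cortex, and the cortical marker Fezf2, with 174 and 144 cpm. Of all genes tested, 4.03% were called higher in hippocampus and 4.38% higher in cortex. Spink8 was at most 2.29 cpm in cortex and reached the 5 cpm needed for testing in hippocampus alone, which partly set its difference. Of the hippocampal libraries, 4 stood apart. The library labelled CD hippocampus of mouse m118 (mice are named as in the labels) went against its label in a check on Tulp4, the counts that 1 Tulp4 row (NM_054040) holds beyond another (NM_001103181): it had 3.97 cpm from 16 counts, beside 2.71 to 3.69 cpm in WT hippocampus and 0.423 to 0.573 cpm in the other CD hippocampal libraries. The other libraries of m118 stood with CD, at 0.896 cpm in cortex and 1.55 cpm in cerebellum. In cortex the genotypes nearly met, at 1.45 cpm or more in WT and 1.29 cpm or less in CD. The check rests on few counts and does not settle the genotype of this library. The 4 choroid plexus markers summed to 8158 cpm in WT m244, 4118 cpm in CD m190 and 1189 cpm in CD m138, and to 125 to 543 cpm in the other hippocampal libraries. The members' hippocampal comparisons are also given without these 4 libraries, after the values of each gene.

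Reads were enough to test 8 of the 9 members between regions. Cacng8 did not: 2 counts were listed for its single row over all 22 libraries, 1 in the hippocampus and 1 in the cortex of CD mouse m190. That is under the 3-count limit, so γ-8, known for its place in hippocampal synapses, could not be measured here in any region. The other 8 passed the filter of at least 5 cpm in at least 2 libraries. Cnih3 passed it through hippocampus and cortex alone, since all its cerebellar libraries were under 5 cpm, so its cerebellar difference was partly set by the filter. In bulk tissue, fewer cells that express a gene and less RNA per cell cannot be told apart.

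**Figure D1:**
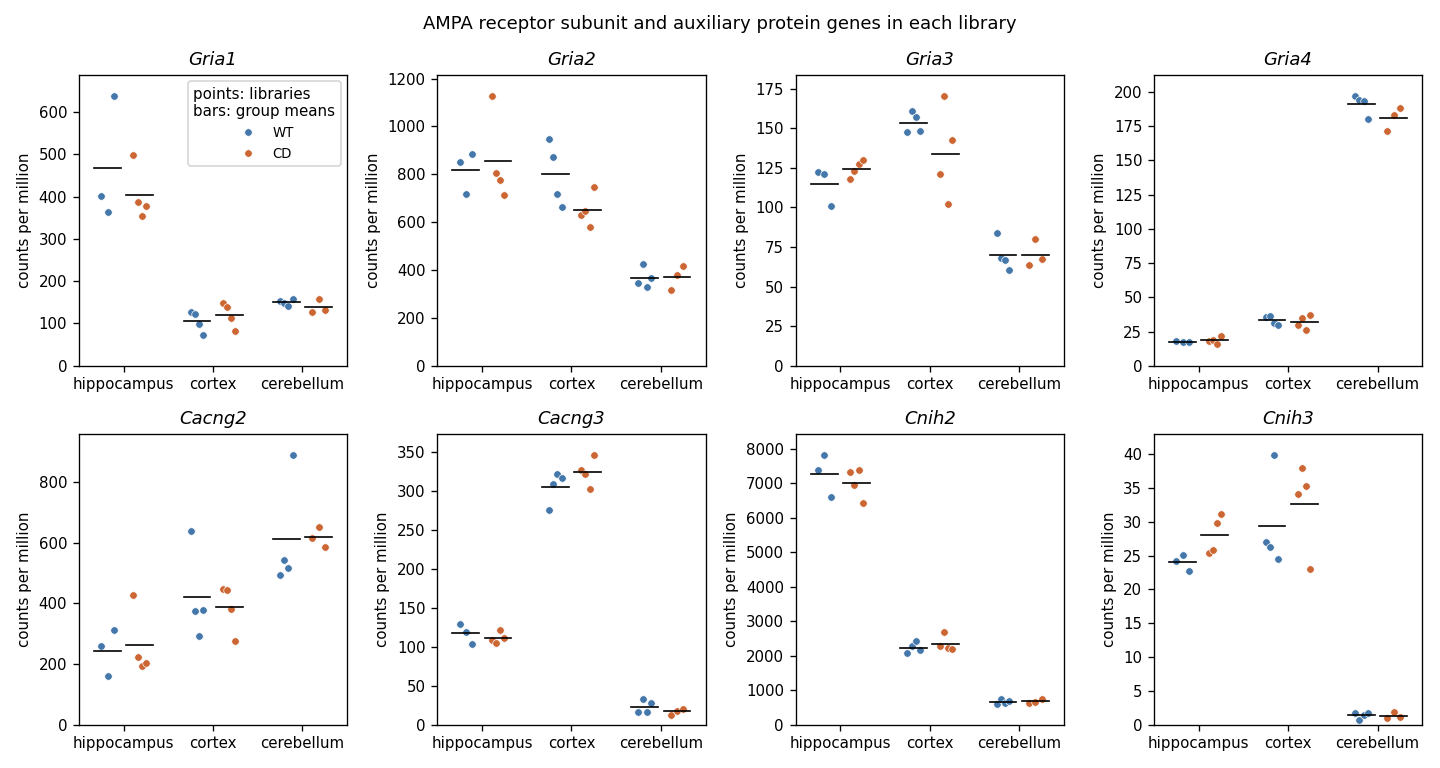
Level of each of the 8 tested genes in cpm (vertical axes, linear from 0) in every library of the 3 regions, WT and CD side by side, with bars at group means. Gria4 sits at 172 to 197 cpm in cerebellum against 16.0 to 36.9 cpm in the other regions, while Cnih2 falls from 6411 to 7813 cpm in hippocampus to 598 to 751 cpm in cerebellum.

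Gria1, whose product GluA1 is moved in and out of synapses during plasticity, was highest in hippocampus. Its level ran from 354 to 637 cpm in hippocampus with a median of 387 cpm, from 73.6 to 148 cpm in cortex with a median of 117 cpm, and from 127 to 159 cpm in cerebellum with a median of 149 cpm. All 7 hippocampal libraries lay above every other library, while cortex and cerebellum overlapped. The mean was 3.82 times that of cortex and 2.96 times that of cerebellum. On the log2 scale cortex was lower than hippocampus by a fitted change of -1.94 ± 0.13 (SE; false discovery rate, FDR, 1.98e-11 in edgeR) and cerebellum by -1.59 ± 0.14 (FDR 3.70e-10). Cerebellum and cortex were separated by 0.36 ± 0.13, with an FDR of 0.0245 that missed the 0.01 threshold. The highest hippocampal value, 637 cpm, came from WT m244, the library with the highest choroid plexus sum, and without the 4 libraries named above the change to cortex was -1.76. Markers of oligodendrocytes moved with it: all 4 were over 2-fold lower in cortex and in cerebellum than in hippocampus, summing to 1830 to 3294 cpm in hippocampus, 567 to 1333 cpm in cortex and 786 to 1295 cpm in cerebellum. The 4 astrocyte markers summed to 633 to 916, 168 to 307 and 325 to 396 cpm, but only 1 of 4 was over 2-fold lower in cortex, and in cerebellum 1 was higher and 1 lower. Of the 6 hippocampal markers, 5 were over 2-fold lower in cortex and 6 over 2-fold lower in cerebellum. They include Spink8, and in cerebellum Fibcd1, whose differences the filter partly set. Of all genes tested, 4.03% were called lower in cortex and 13.0% lower in cerebellum than in hippocampus. The part of any of these marker sets in the Gria1 result was not tested.

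Gria2, the subunit that sets calcium permeability, was shared by the forebrain regions and lower in cerebellum. It ran from 715 to 1126 cpm in hippocampus, with a median of 806 cpm, and from 579 to 947 cpm in cortex, with a median of 690.2 cpm. The cerebellar libraries lay at 315 to 426 cpm, with a median of 367 cpm, below every forebrain library. Cerebellum fell from hippocampus by a fitted -1.18 ± 0.11 (FDR 6.50e-10) and from cortex by -0.97 ± 0.10 (FDR 1.22e-08), the latter just short of the 2-fold threshold. Hippocampus and cortex overlapped and did not pass the test, with a change of -0.21 ± 0.10 and an FDR of 0.11.

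Gria3 had a similar order with cortex on top. Cortex ran from 102 to 170.1 cpm with a median of 148 cpm, hippocampus from 101 to 130.004 cpm with a median of 123 cpm, and cerebellum from 60.7 to 83.9 cpm with a median of 67.1 cpm. Cerebellum was below every other library, and hippocampus and cortex overlapped. The cerebellar change was -0.77 ± 0.10 from hippocampus (FDR 2.04e-07) and -1.03 ± 0.10 from cortex (FDR 8.07e-10). The cortical comparison sat on the 2-fold line: with mouse as a block the value was -0.999962, from CD libraries alone -0.93, without the cortex library of CD mouse m138 it was -0.97 and without the cerebellar library of CD mouse m118 -0.999429, each short of 2-fold with FDR under 0.01. Cortex was above hippocampus by 0.26 ± 0.09, which missed the threshold with an FDR of 0.029.

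Gria4, the subunit known from cerebellar granule cells, Bergmann glia and fast-spiking interneurons, ran against the other subunits. Its cerebellar libraries held 172 to 197 cpm with a median of 188 cpm. The cortical libraries held 25.8 to 36.9 cpm with a median of 33.3 cpm, and the hippocampal libraries 16.0 to 21.7 cpm with a median of 18.1 cpm. No library of any region overlapped with another region. The mean in cerebellum was 10.3 times that of hippocampus and 5.72 times that of cortex, and cortex was 1.80 times hippocampus. The fitted changes were 3.36 ± 0.09 (FDR 2.56e-20), 2.50 ± 0.08 (FDR 7.18e-19) and 0.86 ± 0.09 (FDR 1.76e-08), the last under 2-fold. The 7 granule and Purkinje cell markers rose with it, all 7 past both thresholds in either comparison with cerebellum. The 4 Bergmann glia markers summed to 1249 to 1663 cpm in cerebellum against 489.6 to 825 cpm elsewhere, with 3 of 4 past both thresholds in either comparison. Of all genes tested, 9.76% were called higher in cerebellum than in hippocampus and 9.71% higher than in cortex. Gabra6 in the first list and Gdf10 in the second stayed under 5 cpm outside cerebellum, so the filter partly set their differences. The 5 interneuron markers summed to 1651 to 1972 cpm in cerebellum and 3912 to 6769.8 cpm in the other regions. Singly, 1 was higher and 2 lower in cerebellum in either comparison. Of all genes tested, 13.0% were called lower in cerebellum than in hippocampus and 12.9% lower than in cortex. Vip, which was among the lower, stayed under 5 cpm in cerebellum, so the filter partly set its difference. Pvalb stands in both the granule and Purkinje cell list and the interneuron list. Whether any of these sets the Gria4 level was not tested.

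Among the regulatory proteins, Cacng2 and Cacng3 were both higher in cortex than in hippocampus and went opposite ways in cerebellum. Cacng2 was at 496 to 890.04 cpm in cerebellum (median 587 cpm), 276 to 641 cpm in cortex (median 379.8 cpm) and 159 to 428 cpm in hippocampus (median 225 cpm). Neighbouring regions overlapped, and only cerebellum and hippocampus were apart. Cerebellum was above hippocampus by 1.29 ± 0.20 (FDR 4.16e-06), while the steps from hippocampus to cortex, 0.68 ± 0.19 (FDR 0.0065), and from cortex to cerebellum, 0.61 ± 0.19 (FDR 0.0071), were under 2-fold.

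Cacng3 was highest in cortex. Its level was 275 to 346 cpm in cortex with a median of 319.5 cpm, 104 to 129 cpm in hippocampus with a median of 112 cpm and 12.8 to 32.6 cpm in cerebellum with a median of 17.6 cpm. None of the regions overlapped. The mean in cortex was 2.76 times that in hippocampus and 15.5 times that in cerebellum. The fitted changes were 1.46 ± 0.11 from hippocampus to cortex (FDR 1.76e-10), -2.53 ± 0.13 from hippocampus to cerebellum (FDR 8.23e-15) and -3.99 ± 0.13 from cortex to cerebellum (FDR 1.54e-18).

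The cornichons shared a low cerebellar level and differed in the forebrain. Cnih2 fell stepwise, at 6411 to 7813 cpm in hippocampus with a median of 7337 cpm, 2063 to 2689 cpm in cortex with a median of 2251 cpm and 598 to 751 cpm in cerebellum with a median of 662 cpm. No regions overlapped, and hippocampus had 3.11 times the cortical and 10.7 times the cerebellar mean. The fitted changes were -1.64 ± 0.07 from hippocampus to cortex (FDR 3.35e-15), -3.42 ± 0.08 from hippocampus to cerebellum (FDR 3.25e-21) and -1.77 ± 0.07 from cortex to cerebellum (FDR 1.08e-16).

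Cnih3 was at 22.7 to 31.2 cpm in hippocampus (median 25.4 cpm) and 23.0 to 39.9 cpm in cortex (median 30.6 cpm), which overlapped. Cerebellar libraries held 0.694 to 1.83 cpm (median 1.48 cpm), from 4 to 11 counts each. The cerebellar change was -4.25 ± 0.18 from hippocampus and -4.50 ± 0.18 from cortex, given as sizes with no test since the filter partly set them. Hippocampus and cortex did not pass the test, with a change of 0.26 ± 0.12 and an FDR of 0.113.

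**Figure D2:**
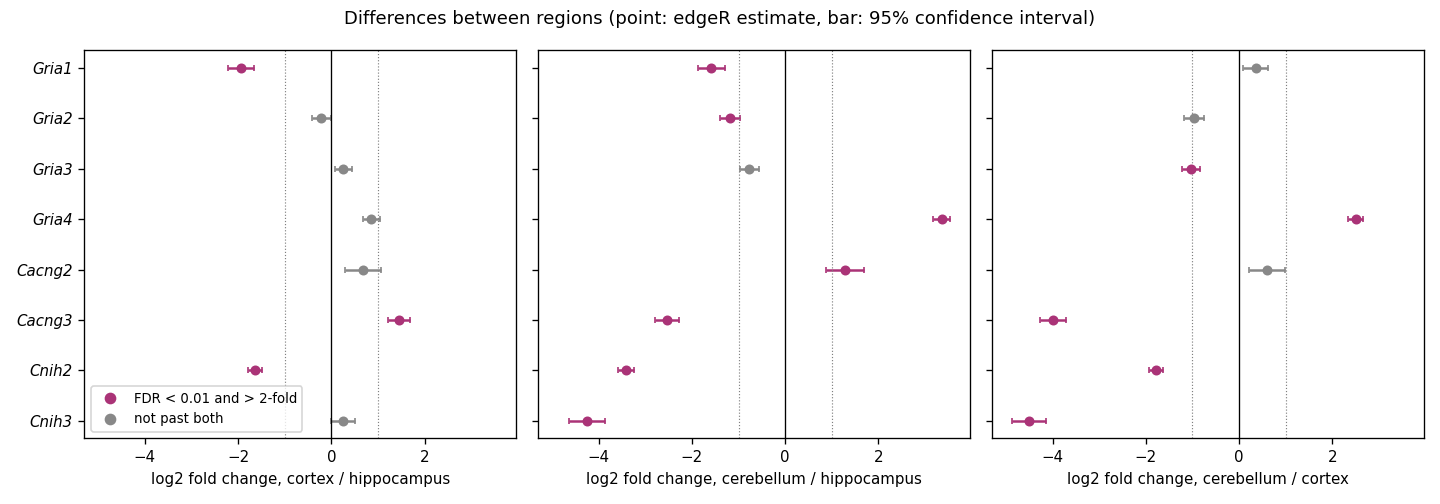
Fitted log2 fold change between regions (horizontal axes) for the 8 tested genes, with 95% confidence intervals. Coloured points pass an FDR under 0.01 and a 2-fold change, and dotted lines mark 2-fold. Gria4 and Cacng2 lie to the right in the comparisons with cerebellum, Gria1 lies left of 0 in both comparisons with hippocampus, and Cnih2, Cnih3 and Cacng3 lie far to the left in cerebellum. The filter partly set the cerebellar differences of Cnih3.

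Counted over the members, 1 of 8 was over 2-fold higher in cortex than in hippocampus (Cacng3) and 2 of 8 over 2-fold higher in hippocampus (Gria1 and Cnih2), where 4.38% and 4.03% of the 11137 genes tested were called. An FDR below 0.01 in either direction was met by 5 of 8, against 25.9% of genes. Between hippocampus and cerebellum, 2 of 8 were higher in cerebellum and 5 of 8 higher in hippocampus, against 9.76% and 13.0% of genes, and 8 of 8 had an FDR below 0.01 against 50.7%. Between cortex and cerebellum, 1 of 8 was higher in cerebellum and 4 of 8 higher in cortex, against 9.71% and 12.9%, and 7 of 8 had an FDR below 0.01 against 51.7%. Libraries of hippocampus and cortex did not overlap for 4 of 8 members and 14.0% of genes, those of hippocampus and cerebellum for 8 of 8 and 35.9%, and those of cortex and cerebellum for 6 of 8 and 32.9%. All counts with cerebellum include Cnih3, which did not reach 5 cpm there, so that the filter partly set its difference. The median fitted change over the members was 0.26, -1.38 and -1.001 in these comparisons, beside medians of -0.01, 0.02 and 0.02 over all genes tested. Leaving out the 4 hippocampal libraries named above left WT m162, WT m240 and CD m242. The CD part of hippocampus then rested on 1 library, so only the sizes of the changes are given. The change from hippocampus to cortex was then -1.76 for Gria1, -0.059 for Gria2, 0.18 for Gria3, 0.73 for Gria4, 0.97 for Cacng2, 1.42 for Cacng3, -1.61 for Cnih2 and 0.16 for Cnih3. The change from hippocampus to cerebellum was -1.41 for Gria1, -1.03 for Gria2, -0.86 for Gria3, 3.23 for Gria4, 1.57 for Cacng2, -2.58 for Cacng3, -3.39 for Cnih2 and -4.35 for Cnih3. Every sign was that of the fit with all libraries.

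Within a library, the balance of the subunits differed by region. A count ratio is free of the library total but is not a ratio of molecules, since 3′ counting is not equally efficient for each gene, so only its change between samples was read. Gria1 counts per 100 Gria2 counts had a median of 48.0 in hippocampus (44.2 to 72.0), 13.9 in cortex (11.1 to 23.5) and 41.8 in cerebellum (31.6 to 44.2). The cortical libraries were thus below all others, and the cerebellar ratio came close to the hippocampal one although both genes were lower there. Gria4 per 100 Gria2 had a median of 2.13 in hippocampus (1.61 to 3.04), 4.49 in cortex (3.78 to 5.43) and 49.1 in cerebellum (45.1 to 58.8), with no overlap between regions. Gria3 per 100 Gria2 overlapped across all regions, with medians of 15.2, 19.2 and 20.2. Cacng3 per 100 Cacng2 had medians of 49.8 in hippocampus, 80.9 in cortex and 3.07 in cerebellum. Cnih3 per 100 Cnih2 had a median of 1.36 in cortex (1.04 to 1.64), above 0.346 in hippocampus (0.321 to 0.487) and 0.235 in cerebellum (0.0924 to 0.278), again with no overlap. The cerebellar ratios rested on 4 to 11 Cnih3 counts a library, so their separation from hippocampus is uncertain. These ratios are descriptions and were not tested.

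**Figure D3:**
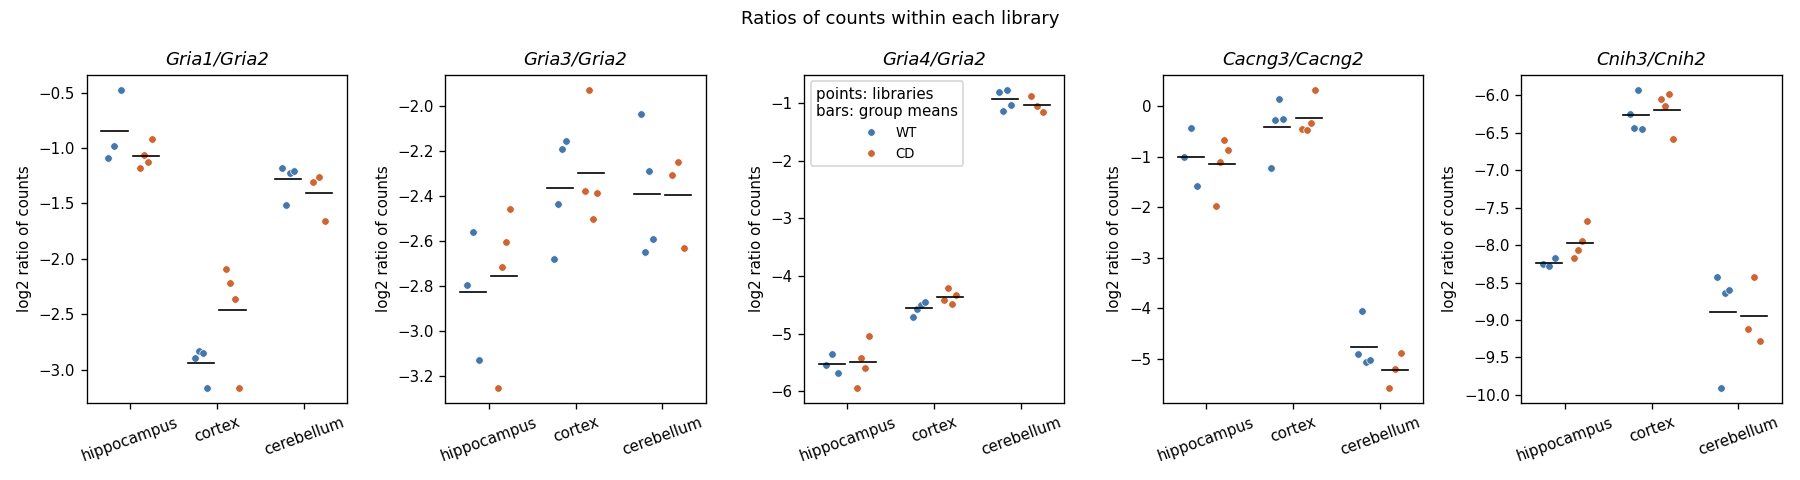
Log2 ratio of counts of a gene to those of its partner within each library (vertical axes), by region and genotype, with bars at group means. Gria1/Gria2 is lowest in cortex, Gria4/Gria2 and Cacng3/Cacng2 separate cerebellum from the other regions in opposite directions, and Cnih3/Cnih2 is highest in cortex.

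The table lists several transcript rows for most members, and rows of a gene share reads, so their counts repeat one another. The number of rows was 6 for Gria1, 14 for Gria2, 7 for Gria3, 15 for Gria4, 2 for Cacng2, 1 for Cacng3 and Cacng8, 2 for Cnih2 and 4 for Cnih3. For Gria1, the row of the transcript with the flip exon printed above (NM_001113325.2) held 30628 counts and that with the flop exon (NM_008165.4) held 27945, an excess of 2683. A further Gria1 row (NM_001252403.1), not tied to either exon here, had nearly the same excess over the flop row, 2664. The excess had a mean of 41.3 ± 6.29 cpm (SD, n = 7) in hippocampus, 10.4 ± 4.14 cpm (n = 8) in cortex and 7.59 ± 1.87 cpm (n = 7) in cerebellum. As a percentage of the flip row it was 6.24% to 12.2% in hippocampus, 2.33% to 17.2% in cortex and 3.57% to 6.72% in cerebellum. Cerebellum lay at the low end, and overlapped with each of the other regions. The transcripts also differ in the first exon. The flip and flop exons end 2937 and 2936 bases before the annotated 3′ ends, and these libraries were read at 3′ ends. The excess is therefore not a measure of flip inclusion. The Gria4 rows with the flop and the flip exon (NM_001113180.1 and NM_019691.4) differed by 2 counts in total, so these reads did not tell the Gria4 exons apart. For Gria2, the row tied to the flip exon (NM_001083806.1) and a row tied to the flop exon (NM_013540.2) differed by 161 counts in total, and by -0.045% to 0.73% of the flip row in single libraries. The annotation ties a low row of Gria2 (NM_001039195.1) to the same flop transcript.

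For Gria2, 12 of 14 rows held 81348 counts or more and the other 2 held 4048 and 4012. The low row NM_001039195.1 did not follow the high row NM_013540.2 across regions. It was at 22.9 to 60.0 cpm in hippocampus, 11.7 to 30.3 cpm in cortex and 17.9 to 44.8 cpm in cerebellum. As a percentage of the high row it was 3.30% to 7.28% in hippocampus, 2.06% to 4.49% in cortex and 5.14% to 12.3% in cerebellum, so that cerebellum lay above every cortical library. The cerebellar drop in Gria2 is therefore a result for the high rows. Their log2 ratios of mean cpm between cerebellum and hippocampus reached -1.08, beside -0.06 and -0.05 for the low rows. These ratios used cpm of the library totals without TMM scaling. With TMM scaling the low row NM_001039195.1 had a mean of 37.5 cpm in hippocampus and 31.9 cpm in cerebellum, so it was somewhat lower there. What these rows hold of the gene was not resolved here, and the ratios were not tested.

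**Figure D4:**
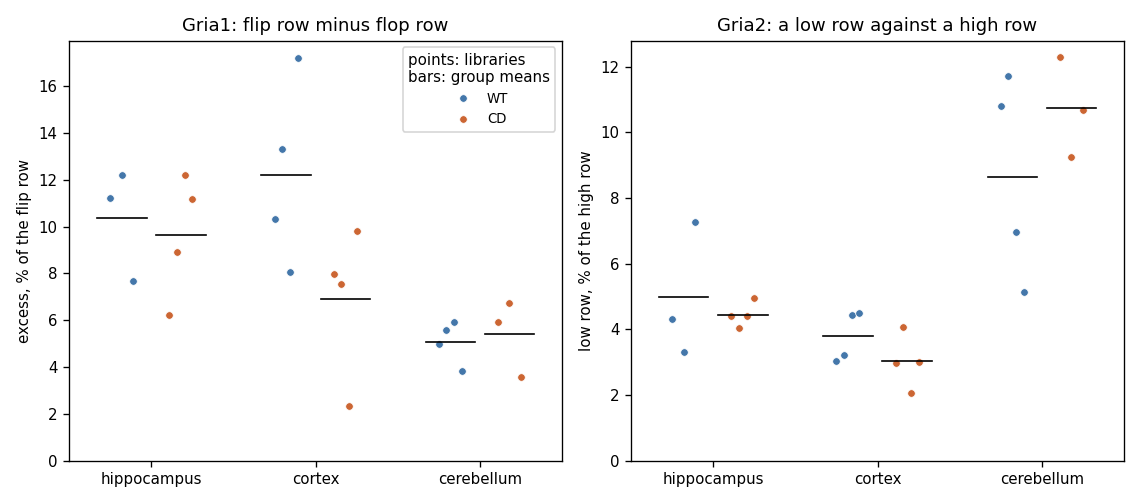
Left, counts of the Gria1 flip row beyond those of the flop row, as a percentage of the flip row, in every library. Right, counts of a low Gria2 row as a percentage of a high Gria2 row. Bars are group means; the Gria1 excess is 3.57% to 6.72% in cerebellum, and the Gria2 percentage reaches 12.3% there against at most 4.49% in cortex.

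CD and WT libraries were then compared within each region. No member passed an FDR of 0.01 and a 2-fold change in any region by edgeR or DESeq2, nor over the regions together by limma. With the filter and all libraries, the same held for every gene tested in the edgeR and limma fits. Members called were 0 of 8 in hippocampus, 0 of 8 in cortex and 0 of 7 in cerebellum, where Cnih3 was too low to be tested, beside 0.00% of 9964, 9927 and 10142 genes. At an unadjusted p under 0.05 the counts were 0 of 8, 1 of 8 and 0 of 7, beside 4.22%, 3.30% and 4.56% of genes. Over the regions together, with mouse as a random block, they were 0 of 8 past both thresholds and 0 of 8 at an unadjusted p under 0.05, beside 0.00% and 3.58%. Genotypes did not overlap for 1 of 8 members in hippocampus against 5.41% of the 11137 genes, for 0 of 8 in cortex against 2.55% and for 0 of 8 in cerebellum against 5.23%.

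The 1 member with a low unadjusted p was Gria2 in cortex. The WT libraries held 947, 870.4, 717 and 663 cpm, and the CD libraries 630.04, 648, 579 and 746 cpm. The groups overlapped, since the lowest 2 WT values lay below the highest CD value. The change was -0.30 ± 0.13 on the log2 scale, with a 95% interval from -0.58 to -0.03, an unadjusted p of 0.0324 from the edgeR model and an FDR of 0.999884. Leaving out each library in turn moved the change between -0.38 and -0.21. In hippocampus the Gria2 change was 0.07 ± 0.15, or -0.089 without m118, and in cerebellum 0.02 ± 0.12. The difference of genotype effects between regions did not pass the test for Gria2 (interaction FDR 0.999), nor for any of the other tested members or any gene (0.00% of 11137 genes under an FDR of 0.05).

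The member whose genotypes did not overlap was Cnih3 in hippocampus. WT libraries held 24.2, 25.0 and 22.7 cpm and CD libraries 25.4, 25.8, 29.8 and 31.2 cpm. The gap between the groups was under 1 cpm, and the change of 0.23 ± 0.13 had an interval from -0.06 to 0.52 and an FDR of 0.997. Without m118 the change was 0.27. In cortex, where the groups overlapped, the change was 0.13 ± 0.19.

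Gria1, the other subunit of most forebrain receptors, held 401, 364 and 637 cpm in WT hippocampus and 497, 387, 354 and 379 cpm in CD hippocampus. The groups overlapped, and 1 library of each stood above the rest. The change was -0.21 ± 0.19 with an interval from -0.61 to 0.20, and without WT m244 it was 0.08. Cacng2 held 259.8, 159 and 312 cpm in WT hippocampus and 428, 225, 193 and 203 cpm in CD hippocampus. The value of 428 cpm was that of m118, whose Tulp4 check went against its label, and the change of 0.10 ± 0.28 became -0.23 without it. Cacng3 in cerebellum had the largest fitted change of any member in a single region, -0.43 ± 0.25 with an interval from -0.98 to 0.11. Its WT libraries held 16.5, 32.6, 15.5 and 27.3 cpm and its CD libraries 12.8, 17.6 and 19.97 cpm, which overlapped, and without the WT library of m164 the change was -0.22. Over the regions together, the members' changes ran from -0.12 ± 0.10 for Cacng3 to 0.10 ± 0.22 for Cnih3, and their median was -0.03 beside -0.00138 for all genes. The 95% intervals of that fit reached from -0.36 to 0.55 for Cnih3, the widest, and from -0.10 to 0.13 for Cnih2, the narrowest, so none of the 8 included a 2-fold change. Within regions the intervals reached from -0.98 for Cacng3 in cerebellum to 0.72 for Cacng2 in hippocampus. A missed threshold does not show that the genotypes are alike.

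**Figure D5:**
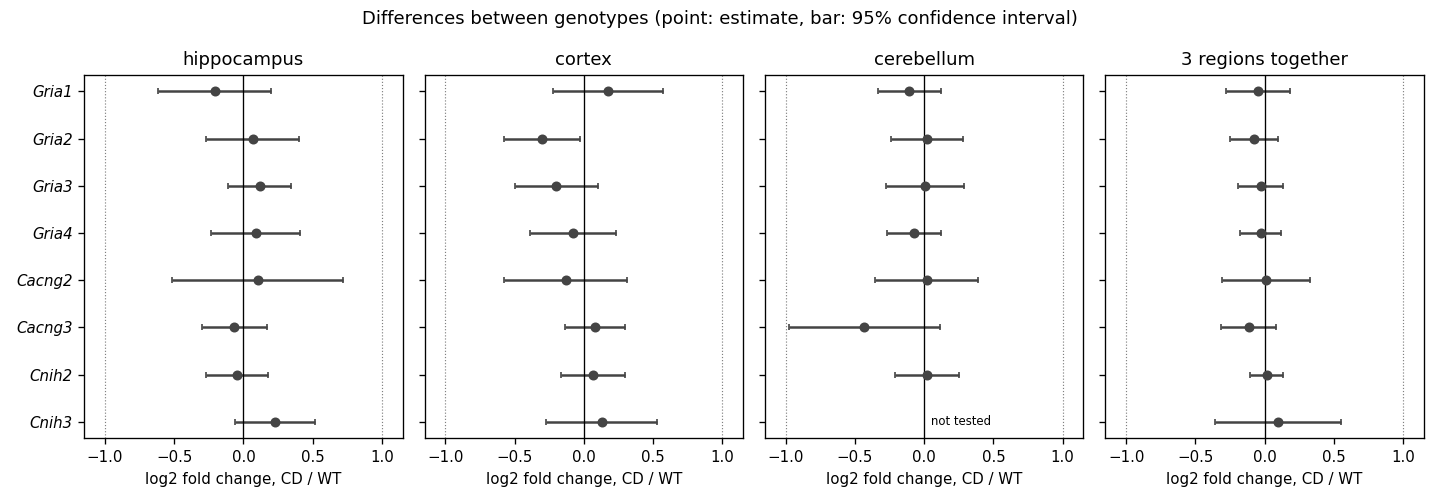
Fitted log2 fold change of CD over WT (horizontal axes) in each region and over the regions together, with 95% confidence intervals; dotted lines mark 2-fold. All points lie between -0.43 and 0.23, and the only interval that leaves out 0 is that of Gria2 in cortex, from -0.58 to -0.03.

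Other genes of the receptor's company were read from lists chosen with results of these data known. Of 21 further auxiliary or associated proteins, 18 were tested between regions, and Cacng4, Cacng7 and Olfm2 were too low. Between hippocampus and cortex 1 was over 2-fold higher in cortex and 2 higher in hippocampus, beside 4.38% and 4.03% of all genes tested. Between hippocampus and cerebellum 4 were higher in cerebellum and 3 in hippocampus, beside 9.76% and 13.0%. Between cortex and cerebellum 6 were higher in cerebellum and 3 in cortex, beside 9.71% and 12.9%. These counts include Shisa8, which reached 5 cpm in cerebellum alone, and Shisa7, which reached it in 1 cerebellar library. The filter partly set the differences of both. The medians of the 18 genes were 0.01, -0.16 and 0.09, close to those of all genes. Shisa6, which encodes an auxiliary protein that limits receptor desensitisation, was at 52.8 to 65.9 cpm in hippocampus, 2.68 to 7.52 cpm in cortex and 43.3 to 52.8 cpm in cerebellum, with a change of -3.96 ± 0.13 from hippocampus to cortex (FDR 3.67e-17). Cacng5, a further relative of stargazin, was higher in hippocampus than in cortex as well, by a change to cortex of -1.36 ± 0.15 (FDR 1.05e-07), and was far higher in cerebellum than in cortex, by 3.65 ± 0.15 (FDR 5.15e-17). Gsg1l, whose product acts as a brake on AMPA receptor currents, was at 27.0 to 50.2 cpm in cortex and at most 10.5 cpm elsewhere, with a change of 2.19 ± 0.18 from hippocampus to cortex (FDR 6.55e-10) and -2.30 ± 0.19 from cortex to cerebellum (FDR 7.58e-11). Shisa8 was at 23.8 to 30.95 cpm in cerebellum, at most 1.98 cpm in hippocampus and at most 1.69 cpm in cortex, given as levels with no test for that reason. Olfm3 rose from hippocampus to cerebellum by 3.38 ± 0.15 (FDR 6.17e-16). Shisa7 was at 45.3 to 57.95 cpm in hippocampus and 3.12 to 6.31 cpm in cerebellum. Its cerebellar change was -3.51 ± 0.13 from hippocampus and -2.75 ± 0.13 from cortex. Both are given as sizes with no test, since the filter partly set them. Nrn1 fell from hippocampus to cerebellum by -1.33 ± 0.21 (FDR 6.01e-06).

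Of 18 trafficking and anchoring genes, all were tested. Between hippocampus and cortex 4 were over 2-fold higher in cortex and 0 in hippocampus, beside 4.38% and 4.03% of all genes tested. An FDR below 0.01 was met by 7 that were higher and 5 that were lower in cortex, beside 25.9% of genes in either direction. In cerebellum 0 were over 2-fold higher and 7 lower than in hippocampus, beside 9.76% and 13.0%, and 0 higher and 6 lower than in cortex, beside 9.71% and 12.9%. These counts include Grip2, which reached 5 cpm in cortex alone, and Nptx2, which did not reach it in cerebellum. They also include Akap5, which reached 5 cpm in 1 cerebellar library. The filter partly set the differences of these genes. The medians were 0.12, -0.38 and -0.73. Arc, the activity-regulated gene whose product helps withdraw receptors from the surface, was at 160.5 to 495 cpm in cortex, 70.2 to 113 cpm in hippocampus and 14.2 to 20.2 cpm in cerebellum, with changes of 1.79 ± 0.16 from hippocampus to cortex (FDR 1.70e-09), -2.36 ± 0.18 from hippocampus to cerebellum (FDR 2.47e-11) and -4.14 ± 0.18 from cortex to cerebellum (FDR 5.25e-16). Nptx2, a secreted pentraxin that gathers receptors at synapses, was at 35.7 to 81.4 cpm in cortex, 12.7 to 25.7 cpm in hippocampus and at most 2.65 cpm in cerebellum. Grip2, a scaffold for GluA2 and GluA3, was at 4.77 to 8.02 cpm in cortex, at most 3.81 cpm in hippocampus and at most 3.51 cpm in cerebellum. Of the editing enzyme genes, Adar, Adarb1 and Adarb2, none passed 2-fold between regions, and Adarb1, whose product edits the Gria2 transcript, was 0.83 ± 0.10 higher in cerebellum than in hippocampus (FDR 1.61e-07).

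Between genotypes, none of these genes passed both thresholds. Those with an unadjusted p under 0.05 in the edgeR or limma model were Prrt2, Nrn1, Nptx1 and Arc in hippocampus, Pick1 in cortex and over the regions together, and Prrt2 and Eps15 in cerebellum. Arc was 0.32 ± 0.15 higher in CD hippocampus (FDR 0.997) and Pick1, a partner of GluA2 in receptor uptake, 0.37 ± 0.16 higher in CD cortex (FDR 0.9999). Prrt2 was -0.24 ± 0.11 in CD hippocampus and 0.26 ± 0.10 in CD cerebellum, opposite in sign. All had an FDR of 0.98 or more.

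Genes with the most similar profile were found from the root mean square difference of centred log2 cpm over the 22 libraries, and up to 2 near genes are named for each member. Abca8a lay at 0.32 from Gria1. Gria2 lay nearest to Dgkh at 0.19 and Ywhab at 0.20. Gria3 lay nearest to Trim46 at 0.14, the smallest distance among the genes named here, and Arhgap1 at 0.17. Gria4 was followed by Pde5a at 0.18 and Ank1 at 0.25, Cacng2 by Prag1 at 0.28 and Nfic at 0.29, and Cacng3 by Fam81a at 0.30 and Adrb1 at 0.32. Cnih2 was followed by Gng7 at 0.17 and Wipf3 at 0.23, and Cnih3 by Pnma2 at 0.28 and Hpcal4 at 0.29. No member was the nearest gene of another.

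Some members overlap other listed genes. Cnih2 overlaps Yif1a, Cacng2 overlaps A730060N03Rik and Gria4 overlaps Gm46101, all listed on the opposite strand with at most 4276, 633 and 24 counts. Whether the counting used strand is not given in the sources used here, and the members' own totals were 460959, 54765 and 10198 counts.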

How the data were processed

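Libraries were prepared by CelSeq2, a 3′ method, and the authors aligned them with STAR to mm10 and counted them with ESAT; the deposited table holds raw counts per RefSeq transcript. Of 85964 transcripts, 69288 (80.6%) were matched to 23037 gene symbols by identifier without version, and the row with the highest total stood for each gene. Genes with at least 5 cpm in 2 or more libraries were kept, TMM factors ran from 0.896 to 1.13, and levels are TMM cpm. Regions, genotypes within a region and the interaction were tested with edgeR 4.0.16 (quasi-likelihood, Benjamini-Hochberg) and genotype over the regions with limma 3.58.1 (voom, mouse as random block); calls took FDR below 0.01 and over 2-fold. DESeq2 1.42.0, other scalings, filters, summed rows and leaving out libraries were alternatives. All fits were tested on simulated counts. Members and lists were chosen with earlier results of these data known.

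Mouse numbers in the labels pair the regions; deviations from group means correlated by 0.0828, 0.0469 and -0.0036 on average over mice. No libraries were duplicates, with a chi-square per degree of freedom of at least 6.20 within groups. Named genes are all members, and in each further list up to 2 in each direction with the largest change per region comparison, those with unadjusted p under 0.05 between genotypes, and the nearest 2 profiles to each member, of which 1 is not reported here; Adarb1 and the genes too low to test were named after values were seen. Libraries of 1 group are separate mice.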

Additional observations from a re-analysis of the deposited data

Results flagged for a closer look

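Among the 32 sets of 4 libraries of a group and gene, 4 held a library whose gap to its nearest neighbour took up most of the range, where chance gives about 1 in 20, or 1.6. Cacng2 was at 428 cpm in CD hippocampus of m118, from 1700 counts, beside 193 to 225 cpm in the other 3 libraries. Cacng2 was also at 890.04 cpm in WT cerebellum of m244, from 5280 counts, beside 496 to 543 cpm. Cnih2 was at 2689 cpm in CD cortex of m138, beside 2201 to 2269 cpm. Cnih3 was at 39.9 cpm in WT cortex of m240, from 184 counts, beside 24.5 to 27.1 cpm.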

How the results depend on the processing

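Region calls of the members were tried under other scalings, DESeq2, no filter, summed rows, a replicate block, 1 genotype alone and each library left out. The sign of every member's region change held, and the number past both thresholds stayed at 3 between hippocampus and cortex and 7 between hippocampus and cerebellum under all of these. Between cortex and cerebellum it was 5, ranging from 4 to 6, since Gria2 and Gria3 lie at 2-fold: with WT libraries alone Gria2 reached -1.13. With mouse as a replicate block Gria3 was -0.999962, which left 4, and the block changed no other call; 926, 2548 and 2520 genes were past both thresholds with it, against 937, 2539 and 2516 without. Without a filter 1471 genes passed between hippocampus and cortex.

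Leaving out 4 hippocampal libraries was chosen after seeing the data. Genotypes share no mouse, so no paired genotype fit exists; over the regions, no replicate block left the members called at 0. Without a filter 6, 3 and 10 genes were past the thresholds in hippocampus, cortex and cerebellum, and DESeq2 called 2 in hippocampus (Frrs1 and Gm34045) and 1 in cortex (Gm40250), none of them a member. Leaving out a library gave 0 to 1 genes in cortex (Gm40250, without CD m190) and 0 to 1 in cerebellum (Prl, without CD m242).

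Genotype changes were near 0, and 17 crossed it when a library was left out. Over the regions together the ranges were -0.10 to 0.036 for Gria1, -0.072 to 0.011 for Gria3, -0.054 to 0.0029 for Gria4, -0.080 to 0.089 for Cacng2 and -0.0093 to 0.035 for Cnih2. In hippocampus they were -0.36 to 0.080 for Gria1, -0.089 to 0.14 for Gria2, -0.23 to 0.32 for Cacng2, -0.15 to 0.011 for Cacng3 and -0.11 to 0.011 for Cnih2. In cortex they were -0.16 to 0.0074 for Gria4, -0.27 to 0.15 for Cacng2 and -0.0011 to 0.11 for Cnih2. In cerebellum they were -0.075 to 0.12 for Gria2, -0.093 to 0.11 for Gria3, -0.071 to 0.25 for Cacng2 and -0.050 to 0.085 for Cnih2. None passed a threshold. Cnih3 in cerebellum rested on 4 to 11 counts a library, and Cacng8 had 2 counts in all.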
